A study of Homo sapiens with 24 samples.

Results

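MYC and 9 regulators of the step from G1 to S phase of the cell cycle (CCND1, CCND3, CCNE1, E2F1, RB1, RBL2, CDKN1A, CDKN1B and CDKN1C) were followed through 24 RNA-sequencing libraries of 4 human cancer cell lines. The genes were taken by name, and all 10 were found among the 16591 gene symbols of the expression table. OVCAR8 and COV362 are ovarian cancer lines, and BT549 and MDAMB436 are breast cancer lines. Cultures received 5 µM EPZ015666 (GSK3235025), an inhibitor of the arginine methyltransferase PRMT5, or the vehicle DMSO. BT549 and OVCAR8 were sampled after 3 and after 5 days, and COV362 and MDAMB436 after 5 days. Each of the 12 groups held 2 libraries, A and B, of stranded poly(A) RNA. Libraries A and B are not stated to be separate cultures, and the p-values measure only the spread between libraries, which may be technical.

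In G1, cyclin D with CDK4 or CDK6 and cyclin E with CDK2 phosphorylate the pocket proteins RB1, RBL1 and RBL2, which otherwise hold E2F transcription factors in check. E2F1 and its relatives then switch on genes of DNA replication, CCNE1 among them. MYC pushes cells into this step, partly through cyclins and CDKs, while the products of CDKN1A (p21), CDKN1B (p27) and CDKN1C (p57) bind and inhibit cyclin-CDK complexes. The levels of several of these proteins are also set by ubiquitin ligases, which RNA levels do not show. PRMT5 dimethylates arginines of histones and of splicing factors.

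Libraries held 23.77 M to 44.96 M reads assigned to genes (median 27.8 M). A pair of them stood apart in their share of reads from genes on the short arm of chromosome 21, where ribosomal RNA genes lie: it was 4.573% in library B of OVCAR8 under EPZ015666 at day 5 and 1.408% in library A of BT549 under EPZ015666 at day 3, against 0.256% to 0.831% elsewhere. PRMT5 RNA itself had a mean of 3.20 RPKM under EPZ015666 and 2.26 RPKM under DMSO in COV362, a log2 change of 0.49 ± 0.088 (SE, adjusted p = 0.0181, limma). It was also higher in BT549 at day 5 (0.38, adjusted p = 0.0124), in OVCAR8 at day 3 and day 5 (0.30 and 0.12, adjusted p = 0.00141 and 0.0131) and in MDAMB436 (0.22, adjusted p = 0.0477), and was 0.033 in BT549 at day 3 (adjusted p = 0.791). The inhibitor acts on the enzyme, so this RNA does not check the labels. Of the epithelial markers, KRT8 and KRT18 were high in OVCAR8 (22.8 to 27.8 and 151 to 185 RPKM) and COV362 (15.0 to 22.8 and 87.6 to 151 RPKM). MDAMB436 had 44.5 to 53.1 RPKM of KRT18 but 1.1 to 1.4 of KRT8 and 0.0559 to 0.0741 of EPCAM. KRT19 of the same set did not follow KRT8 and KRT18, with 0 to 0.0351 RPKM in OVCAR8 and in MDAMB436, 0.0777 to 0.172 in BT549 and 29.7 to 38.3 in COV362. In BT549 KRT8 was at 0.0232 to 0.0499 RPKM and EPCAM at 0 to 0.00251 RPKM, while KRT18 was at 7.52 to 10.5 RPKM. The mesenchymal VIM was at 43.7 RPKM or more in all 24 libraries. Other mesenchymal markers varied between lines. FN1 had 9.47 to 11.8 RPKM in OVCAR8 and 0.4 to 0.457 in MDAMB436. CDH2 was lowest in BT549 (0.303 to 0.52 RPKM), while ZEB1 was highest there (0.313 to 0.42 RPKM). PAX8, a marker of Müllerian tumours, had 0.287 to 0.354 RPKM in COV362, 0.0546 to 0.0950 in OVCAR8 and at most 0.000688 in the breast lines. MSLN of that set was also higher in the ovarian lines, with 5.57 to 48 RPKM in OVCAR8 and 4.67 to 22.9 in COV362. It had at most 3.19 RPKM in BT549 and 0.977 in MDAMB436. WT1 and MUC16 did not separate the ovarian lines. WT1 had medians of 0.167 RPKM in BT549 and 0.169 in MDAMB436, against 0.0446 in OVCAR8 and 0.120 in COV362. MUC16 had medians of 0.144 in MDAMB436, 0.494 in COV362 and 0 in OVCAR8. Of the breast luminal markers, GATA3 had 4.17 to 5 RPKM in BT549 but 0.0529 to 0.066 in MDAMB436. ERBB2 had 3.34 to 3.98 RPKM in BT549, 2.75 to 3.27 in OVCAR8 and 1.28 to 1.76 in MDAMB436. PGR was at 0 RPKM in BT549 and highest in OVCAR8 (0.147 to 0.211). Of the basal markers, EGFR had medians of 1.17 to 1.96 RPKM over the lines and KRT14 at most 0.334. The collagen gene COL1A1, a fibroblast marker, had 42.9 to 59.9 RPKM in BT549 and 49.0 to 58.5 in OVCAR8. Other fibroblast and endothelial markers did not follow it. PDGFRB had 0.0435 to 0.0711 RPKM in BT549 and 1.12 to 1.87 in OVCAR8. PECAM1 and CDH5 had at most 0.00377 and 0.00218 RPKM in BT549, and at most 0.0111 and 0.008 in OVCAR8.

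Expression is given in RPKM, reads scaled to gene length and to a total for each library. The reads assigned to genes came to 100.79% to 106.74% of that total in BT549 and 93.92% to 99.5% in the other lines. In BT549 the total was thus smaller than the reads assigned to genes, and how it was set is not known. The gene length is the whole span of a gene with its introns. Levels of different genes are therefore compared only after conversion to RPKM over merged exons. On that exon scale the median level over the 24 libraries was 43.8 for E2F1, 40.6 for MYC, 38.5 for CDKN1B, 30.1 for CCND1, 16.3 for CDKN1A, 15.1 for RBL2, 14.3 for CCNE1, 12.3 for CCND3, 7.06 for CDKN1C and 1.82 for RB1. By this median E2F1, MYC and CDKN1B were the most abundant of the 10 transcripts and RB1 the least, but the order differed between lines. In COV362 CCND1 led, with 134 under DMSO and 158 under EPZ015666, against 75.5 and 101 for MYC. E2F1 had group means of 21.7 to 27.3 in OVCAR8, in each group below MYC, CDKN1B and CCND1. The exon scale takes all reads as exonic, and whether intronic reads were counted is not known. Within a gene the spread over libraries was widest for CCND1, whose highest library had 25.9 times the RPKM of its lowest, followed by CDKN1A with 9.62 times. It was narrowest for CCNE1, with 2.0 times. Behind these values lay 2224 to 10249 reads per library for MYC, 373 to 2947 for CDKN1A, 197 to 1275 for CDKN1C and 228 to 807 for RB1.

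The sequences just before the transcription start are shown for the inhibitor genes CDKN1A and CDKN1B, whose RNA moved with the drug in opposite directions in COV362 and MDAMB436, and for CCNE1 and E2F1, known targets of E2F proteins. They are the 120 bases before the start in the RefSeq promoter table (build GRCh38.p14), written 5′ to 3′ on the gene's strand. Among the promoters searched, 10 belonged to 7 of the 10 genes. This count does not say whether the full table holds the other genes. Capitals mark matches to the E2F motif, searched as TTTCCCGC, TTTCGCGC, TTTGCCGC and TTTGGCGC on both strands. These motif forms can overlap each other, and E2F1 held both matches found.
CDKN1A (chr6:36678594-36678713, plus strand): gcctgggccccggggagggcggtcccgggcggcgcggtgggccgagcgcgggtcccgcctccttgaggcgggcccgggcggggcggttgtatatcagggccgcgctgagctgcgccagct
CDKN1B (chr12:12717248-12717367, plus strand): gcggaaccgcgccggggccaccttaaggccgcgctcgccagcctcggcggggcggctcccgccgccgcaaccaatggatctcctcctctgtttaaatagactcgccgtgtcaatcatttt
CCNE1 (chr19:29811871-29811990, plus strand): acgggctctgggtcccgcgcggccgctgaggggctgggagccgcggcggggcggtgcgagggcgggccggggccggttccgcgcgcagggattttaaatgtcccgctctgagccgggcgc
E2F1 (chr20:33686386-33686505, minus strand): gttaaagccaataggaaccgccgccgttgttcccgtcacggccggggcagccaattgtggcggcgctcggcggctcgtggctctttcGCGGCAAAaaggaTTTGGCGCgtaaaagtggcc

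In the E2F1 promoter, TTTGGCGC lay 20 to 13 bases before the start on the gene's strand and TTTGCCGC 33 to 26 bases before it on the opposite strand. Over 250 bases before the start, 2.8% of 35116 promoters held one of these 4 motifs and 6.3% held CACGTG, the E-box bound by MYC with MAX. Neither was found in the 250 bases of the other printed genes, which says only that the letters are not in this window.

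Between 1 and 7 of the 10 genes were called in each comparison of EPZ015666 with DMSO, and which genes and in which direction varied between lines. Over the 6 comparisons of drug with vehicle the 10 genes were tested 56 times, of which 10 tests were called higher and 17 lower under EPZ015666 at an adjusted p below 0.05, and 29 did not pass. In BT549 at day 3, 1 of 10 genes was called (CDKN1B, lower), where 12.7% of all genes tested were called. At day 5 in BT549, 3 of 10 were called (CCNE1 higher, CDKN1B and CDKN1C lower), against 30.2% of all genes. In OVCAR8, 5 of 9 genes were called at day 3 (CCNE1 higher, MYC, CCND1, CDKN1A and CDKN1C lower) beside 25.6% of all genes, and 7 of 9 at day 5 (the same 5 with CCND3 and CDKN1B, both lower) beside 43.2%. In COV362, 7 of 9 were called (MYC, CCND1, CCND3, E2F1 and CDKN1A higher, CDKN1B and RBL2 lower) beside 53.9%, and in MDAMB436 4 of 9 (CCND1 and CDKN1A higher, CDKN1B and CDKN1C lower) beside 23.6%. The share in BT549 is close to that of all genes. In OVCAR8, COV362 and MDAMB436 it is higher, over 9 genes that were chosen with earlier results of these data known. The MDAMB436 calls rested on all 4 libraries of that line. In COV362 the higher share depended on the setting. A filter of 1 RPKM gave 5 of 7 genes beside 4461 of 6300 of all genes. Limma-voom gave 7 of 10 beside 8819 of 12482, so both were close to the share of all genes.

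**Figure D1:**
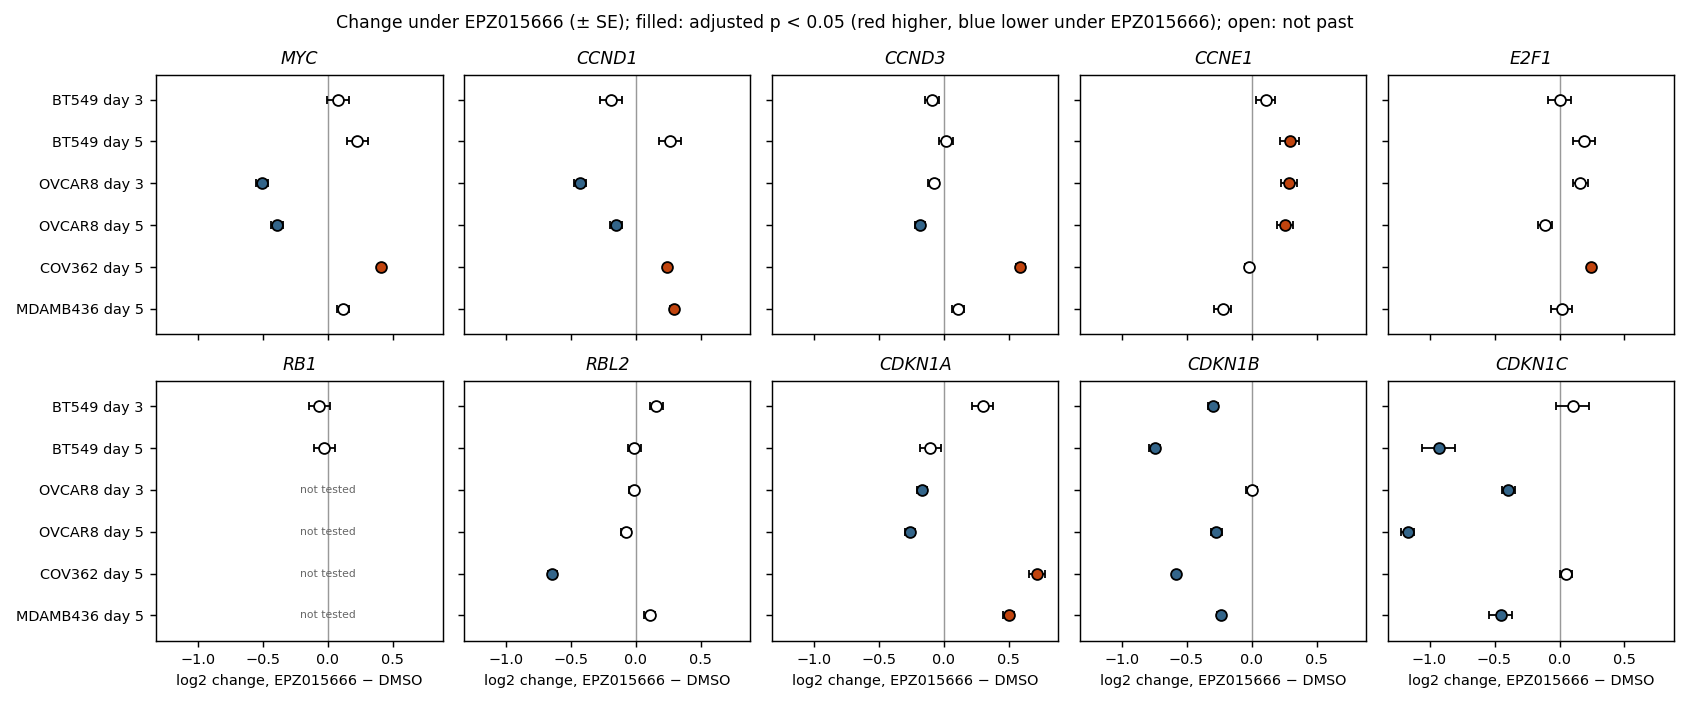
Log2 change of RPKM, EPZ015666 minus DMSO (horizontal axis), for each gene in 6 comparisons (vertical axis), as the estimate ± SE from limma. Filled points passed an adjusted p of 0.05. CDKN1B lies left of 0 and filled in 5 of 6 comparisons, while MYC is filled on the left in OVCAR8 and on the right in COV362.

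MYC (chromosome 8, 127735434 to 127741434, plus strand) encodes the transcription factor that drives growth and S phase entry. In OVCAR8 at day 3 it had 18.2 and 17.4 RPKM under EPZ015666, against 25.1 and 25.6 RPKM under DMSO. At day 5 it had 22.2 and 23.7 RPKM under EPZ015666, against 29.2 and 30.9 RPKM under DMSO. All OVCAR8 libraries with the drug were thus below those with vehicle on the same day, by a log2 change of -0.51 ± 0.046 at day 3 (SE, adjusted p = 0.00199, limma) and -0.39 ± 0.046 at day 5 (adjusted p = 0.00207). COV362 went the other way, with 50.4 and 50.2 RPKM under EPZ015666 and 38.0 and 37.5 RPKM under DMSO, 1.33 times the vehicle level (log2 change 0.41 ± 0.021, adjusted p = 0.00185). In BT549 at day 5 MYC had 18.8 and 18.7 RPKM under EPZ015666, against 15.6 and 16.3 RPKM under DMSO. The libraries did not overlap there, but the log2 change of 0.23 ± 0.083 did not pass (adjusted p = 0.0895). This result depended on the setting. It passed in 2 of 8 others, limma-voom (adjusted p = 0.0167) and 1 limma fit of all 24 libraries (adjusted p = 0.00861). MYC did not pass in BT549 at day 3 (0.082 ± 0.083, adjusted p = 0.544) or in MDAMB436 (0.12 ± 0.044, adjusted p = 0.136). The MDAMB436 libraries had 20.8 and 22.2 RPKM under EPZ015666 and 19.8 in both under DMSO. In the order of the 12 group means COV362 under EPZ015666 was at the top (50.3 ± 0.138 RPKM, SD, n = 2) and BT549 under DMSO at day 5 at the bottom (16 ± 0.496). The 4 BT549 groups and OVCAR8 under EPZ015666 at day 3 had means of 16 to 18.7 RPKM and each overlapped its neighbour in that order. In RNA of whole cultures, fewer cells expressing a gene and less of its RNA per cell cannot be told apart, here and for every gene that follows.

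**Figure D2:**
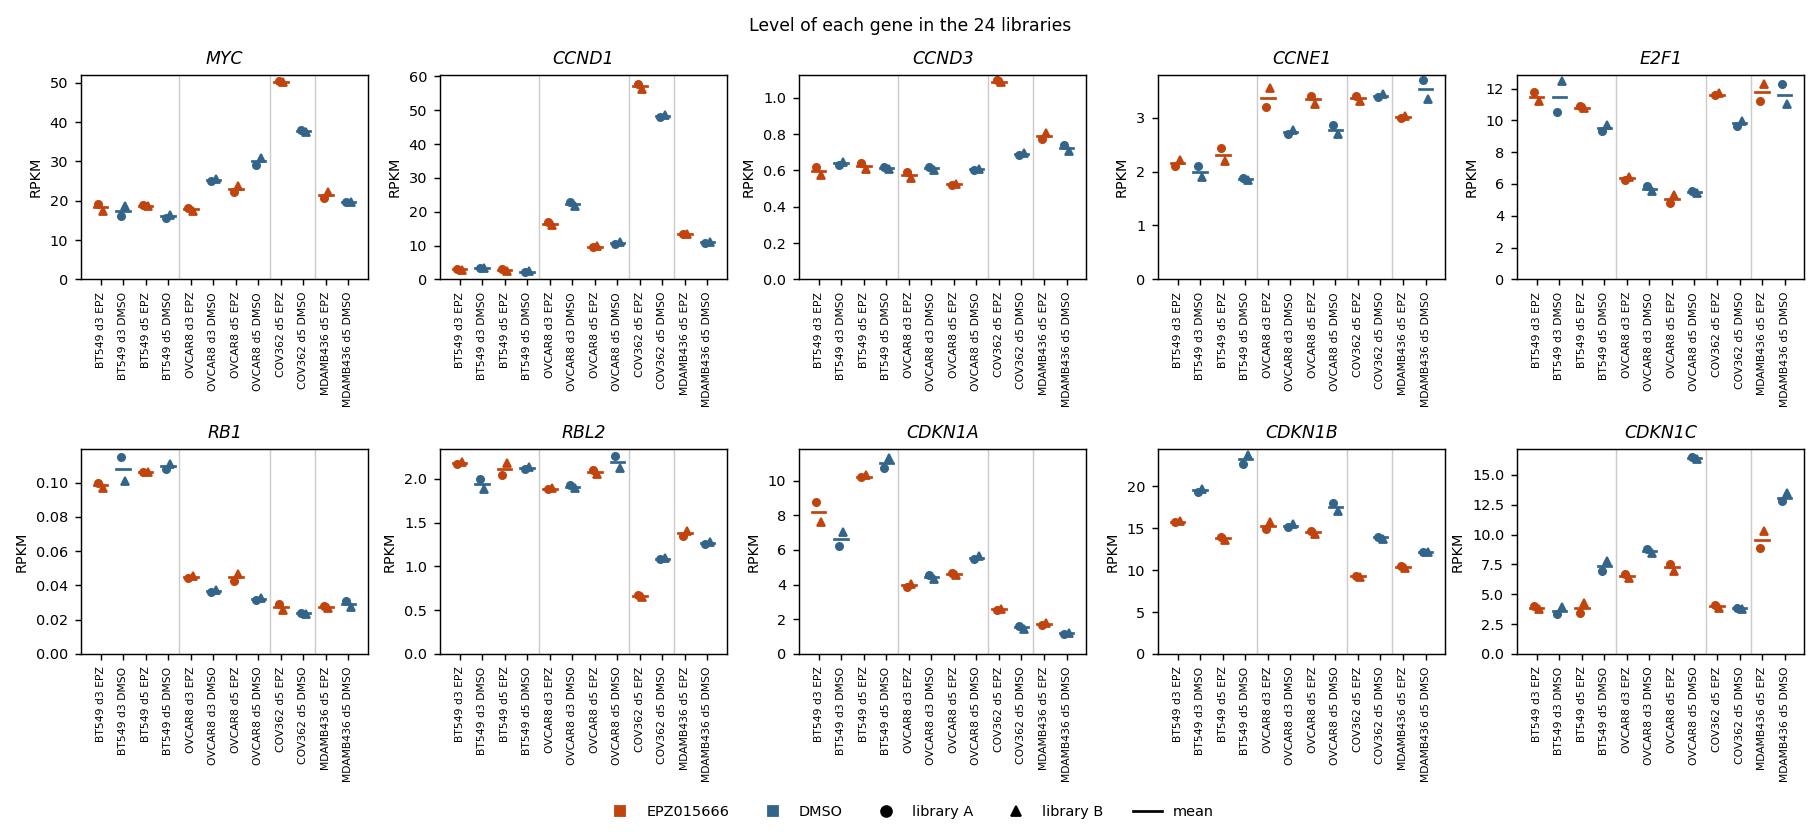
RPKM (vertical axis, linear from 0) of each gene in the 24 libraries, grouped along the horizontal axis by line, day and treatment, with EPZ015666 to the left of DMSO. Points are libraries A and B and lines are group means. CCND1 runs from 2.23 to 57.8 RPKM over the lines, while CCNE1 stays between 1.85 and 3.71.

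CCND1, which encodes cyclin D1 (chromosome 11, 69641087 to 69654474, plus strand), fell in OVCAR8 and rose in the lines sampled only at day 5. OVCAR8 had 16.9 and 16 RPKM under EPZ015666 at day 3, against 22.8 and 21.7 RPKM under DMSO, 0.742 times the vehicle level (log2 change -0.43 ± 0.047, adjusted p = 0.00324). At day 5 OVCAR8 had 9.46 and 9.86 RPKM under EPZ015666, against 10.5 and 11 RPKM under DMSO (-0.15 ± 0.047, adjusted p = 0.0451). The groups were apart on both days, but the day 5 call was lost without any 1 of the 8 OVCAR8 libraries (adjusted p 0.0506 to 0.182). COV362 had the highest levels of the study, 57.8 and 56.3 RPKM under EPZ015666 and 47.9 and 48.7 RPKM under DMSO (0.24 ± 0.025, adjusted p = 0.0057). MDAMB436 had 13.3 and 13.4 RPKM under EPZ015666, against 10.8 and 11 RPKM under DMSO (0.30 ± 0.030, adjusted p = 0.0172). In BT549, the line with the least CCND1, it had 3.00 and 2.57 RPKM under EPZ015666 at day 5, against 2.23 and 2.36 RPKM under DMSO. The change there was 0.26 ± 0.084 at day 5 and -0.19 ± 0.084 at day 3 and passed on neither day (adjusted p = 0.064 and 0.199). Over 8 other settings the day 5 change passed in 4 (limma adjusted p 0.00304 to 0.088) and the day 3 change in 1 (0.0343 to 0.239). CCND1 overlaps LTO1, on the opposite strand, over 1399 bp, and whether reads were counted by strand is not given in the sources used here, so reads of this stretch may be shared.

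CCND3, which encodes cyclin D3 (chromosome 6, 41934933 to 42050357, minus strand), was nearly flat over most libraries and rose in COV362. It had 1.10 and 1.09 RPKM in COV362 under EPZ015666, against 0.686 and 0.699 RPKM under DMSO, 1.58 times the vehicle level (log2 change 0.59 ± 0.034, adjusted p = 0.00213). In OVCAR8 at day 5 it had 0.519 and 0.527 RPKM under EPZ015666, against 0.603 and 0.609 RPKM under DMSO (-0.18 ± 0.041, adjusted p = 0.0186). That call was lost without any 1 of the 4 day 5 libraries (adjusted p up to 0.0847). The other 4 comparisons did not pass (log2 changes -0.087 to 0.112), though MDAMB436 passed in 2 of 6 other settings. The 20 libraries outside COV362 under either treatment lay between 0.519 and 0.806 RPKM, and 6 of the 11 pairs of neighbours in the order of group means overlapped.

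CCNE1, which encodes cyclin E1 (chromosome 19, 29811898 to 29824308, plus strand), was higher under EPZ015666 in 3 comparisons, all by less than 1.25-fold. OVCAR8 had 3.20 and 3.55 RPKM under EPZ015666 at day 3, against 2.69 and 2.78 RPKM under DMSO (log2 change 0.29 ± 0.061, adjusted p = 0.0223). At day 5 OVCAR8 had 3.41 and 3.26 RPKM under EPZ015666, against 2.87 and 2.69 RPKM under DMSO (0.26 ± 0.061, adjusted p = 0.0209). BT549 had 2.44 and 2.19 RPKM under EPZ015666 at day 5, against 1.88 and 1.85 RPKM under DMSO (0.29 ± 0.072, adjusted p = 0.0289). The libraries were apart in each of the 3, and each call was lost in 3 of the 8 fits that left out 1 library (adjusted p up to 0.106, 0.099 and 0.141). In MDAMB436 the libraries lay the other way, 2.99 and 3.03 RPKM under EPZ015666 and 3.71 and 3.35 RPKM under DMSO, which did not pass (-0.22 ± 0.062, adjusted p = 0.0782). This lower level passed in 4 of 8 other settings (limma adjusted p 0.00526 to 0.131 over the 8). COV362 had 3.40 and 3.32 RPKM under EPZ015666 and 3.38 and 3.44 RPKM under DMSO, an overlap (-0.021 ± 0.028, adjusted p = 0.574).

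E2F1, the activating E2F factor (chromosome 20, 33675683 to 33686404, minus strand), was called higher in COV362 alone among the 6 comparisons in the main fits on log2(RPKM + 0.1). It had 11.6 and 11.7 RPKM in COV362 under EPZ015666, against 9.67 and 9.96 RPKM under DMSO (log2 change 0.24 ± 0.026, adjusted p = 0.00587). In BT549 at day 5 it had 10.9 and 10.8 RPKM under EPZ015666 and 9.31 and 9.72 RPKM under DMSO, which did not pass (0.19 ± 0.085, adjusted p = 0.152). OVCAR8 had the lowest E2F1, from 4.80 to 6.46 RPKM over its 8 libraries, with changes of 0.16 ± 0.056 at day 3 and -0.11 ± 0.056 at day 5 (adjusted p = 0.092 and 0.164). Of 8 other settings, 1 called E2F1 higher in BT549 at day 5, limma-voom (0.19, adjusted p = 0.0479). Limma-voom alone also called it higher in OVCAR8 at day 3 (0.16, adjusted p = 0.0257). MDAMB436 had 11.2 and 12.3 RPKM under EPZ015666 and 12.3 and 11 RPKM under DMSO, an overlap (0.016 ± 0.081, adjusted p = 0.898).

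Of the pocket proteins, RBL2, which encodes p130 (chromosome 16, 53433977 to 53491649, plus strand), fell in COV362 to 0.674 and 0.654 RPKM under EPZ015666, against 1.08 and 1.10 RPKM under DMSO. This is 0.609 times the vehicle level (log2 change -0.64 ± 0.036, adjusted p = 0.0021). The 5 other comparisons did not pass, with log2 changes from -0.073 to 0.160. BT549 at day 3 passed in 2 of 8 other settings and MDAMB436 in 1 of 8. The COV362 libraries with the drug had the lowest RBL2 of the study, and OVCAR8 and BT549 the highest, 1.89 to 2.26 RPKM. RBL2 overlaps AKTIP, on the opposite strand, over 610 bp, so reads of this stretch may be shared if strand was not used.

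RB1 (chromosome 13, 48303726 to 48599436, plus strand) has a span of 295711 bp against 6452 bp of merged exons, so its RPKM are low by construction. It reached the mean of 0.1 RPKM needed for the test only in BT549, with 0.106 RPKM in both libraries under EPZ015666 at day 5 and 0.108 and 0.111 RPKM under DMSO (log2 change -0.024 ± 0.082, adjusted p = 0.846). At day 3 BT549 had 0.10 and 0.0970 RPKM under EPZ015666, against 0.115 and 0.101 RPKM under DMSO (-0.065 ± 0.082, adjusted p = 0.631). The other lines had 0.0236 to 0.0469 RPKM. In OVCAR8 it had 0.0424 and 0.0469 RPKM under EPZ015666 at day 5 and 0.0318 and 0.0324 RPKM under DMSO, and 0.0441 and 0.0456 RPKM under EPZ015666 at day 3 and 0.0362 and 0.0372 RPKM under DMSO. The OVCAR8 groups did not overlap on either day. A limma-voom fit of the reads called RB1 higher at day 5 (log2 change 0.47 ± 0.10, adjusted p = 0.000802) and at day 3 (0.29 ± 0.096, adjusted p = 0.0231), while the fit on log2(RPKM + 0.1) with no filter did not (0.13 and 0.084, adjusted p = 0.0851 and 0.277), where the added 0.1 exceeds the level itself. RB1 overlaps LPAR6 and RCBTB2 on the opposite strand over 55138 and 44298 bp, so some of its reads may belong to them if strand was not used.

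CDKN1A, which encodes p21 (chromosome 6, 36676460 to 36687339, plus strand), moved in opposite directions between lines. COV362 had 2.55 and 2.62 RPKM under EPZ015666, against 1.61 and 1.44 RPKM under DMSO, 1.69 times the vehicle level (log2 change 0.72 ± 0.063, adjusted p = 0.00402). MDAMB436 had 1.68 and 1.76 RPKM under EPZ015666, against 1.17 and 1.20 RPKM under DMSO (0.50 ± 0.045, adjusted p = 0.0152). OVCAR8 had 4.69 and 4.56 RPKM under EPZ015666 at day 5, against 5.48 and 5.63 RPKM under DMSO (-0.26 ± 0.039, adjusted p = 0.00454). The libraries were apart in all 3, with p21 RNA higher under the drug in COV362 and MDAMB436, the pair of lines with the lowest vehicle levels, and lower in OVCAR8. At day 3 OVCAR8 had 3.88 and 4.03 RPKM under EPZ015666 and 4.56 and 4.33 RPKM under DMSO (-0.17 ± 0.039, adjusted p = 0.0322), a call lost without any 1 of the 8 libraries (adjusted p 0.0516 to 0.138). BT549 had the most CDKN1A, with 8.76 and 7.62 RPKM under EPZ015666 at day 3 and 6.25 and 7.01 RPKM under DMSO, which did not pass (0.30 ± 0.084, adjusted p = 0.0736). This rise passed in 4 of 8 other settings (limma adjusted p 0.00437 to 0.123 over the 8). At day 5 BT549 had 10.2 and 10.3 RPKM under EPZ015666 and 10.7 and 11.3 RPKM under DMSO (-0.10 ± 0.084, adjusted p = 0.407).

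CDKN1B, which encodes p27 (chromosome 12, 12715058 to 12722371, plus strand), fell in 5 of 6 comparisons and in all 4 lines at day 5. BT549 had 13.9 and 13.6 RPKM under EPZ015666 at day 5, against 22.6 and 23.7 RPKM under DMSO, 0.594 times the vehicle level (log2 change -0.75 ± 0.040, adjusted p = 0.000352). COV362 had 9.34 and 9.20 RPKM under EPZ015666, against 14 and 13.7 RPKM under DMSO (-0.58 ± 0.025, adjusted p = 0.00165). The gap between the groups was far wider than that between libraries of a group. OVCAR8 had 14.7 and 14.3 RPKM under EPZ015666 at day 5, against 18.0 and 17.1 RPKM under DMSO (-0.27 ± 0.041, adjusted p = 0.00477). MDAMB436 had 10.5 and 10.3 RPKM under EPZ015666, against 12.2 in both libraries under DMSO (-0.23 ± 0.031, adjusted p = 0.0224). At day 3 the same gene fell in BT549, with 15.8 and 15.9 RPKM under EPZ015666 and 19.3 and 19.7 RPKM under DMSO (-0.30 ± 0.040, adjusted p = 0.0118). This call was lost without library B of BT549 under EPZ015666 at day 3 (adjusted p = 0.0552, and 0.0279 to 0.0552 over the 8 fits) and held without library A, which stood apart (-0.29, adjusted p = 0.0488). In OVCAR8 at day 3 the groups overlapped, with 14.9 and 15.8 RPKM under EPZ015666 and 15.2 and 15.5 RPKM under DMSO (0.002 ± 0.041, adjusted p = 0.975).

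CDKN1C, which encodes p57 (chromosome 11, 2883213 to 2885773, minus strand), showed the deepest fall of the 10 genes. OVCAR8 had 7.55 and 6.96 RPKM under EPZ015666 at day 5, against 16.5 and 16.3 RPKM under DMSO, 0.442 times the vehicle level (log2 change -1.17 ± 0.050, adjusted p = 0.000147). BT549 had 3.41 and 4.27 RPKM under EPZ015666 at day 5, against 6.95 and 7.81 RPKM under DMSO, 0.520 times (-0.93 ± 0.130, adjusted p = 0.00514). At day 3 OVCAR8 had 6.72 and 6.35 RPKM under EPZ015666, against 8.78 and 8.46 RPKM under DMSO (-0.40 ± 0.050, adjusted p = 0.00495). These 3 comparisons had groups well apart. MDAMB436 had 8.84 and 10.3 RPKM under EPZ015666, against 12.8 and 13.5 RPKM under DMSO (-0.45 ± 0.092, adjusted p = 0.0445). BT549 at day 3 and COV362 showed overlapping groups, with 4.0 and 3.75 RPKM under EPZ015666 and 3.33 and 3.90 RPKM under DMSO in BT549 (0.10 ± 0.130, adjusted p = 0.644). COV362 had 4.13 and 3.85 RPKM under EPZ015666 and 3.88 and 3.80 RPKM under DMSO (0.052 ± 0.045, adjusted p = 0.39).

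The libraries that stood apart and the small number of libraries touch some of these calls. Without library B of OVCAR8 under EPZ015666 at day 5, the calls of that comparison for MYC (-0.43, adjusted p = 0.00751), CDKN1A (-0.24, 0.0295), CDKN1B (-0.25, 0.0303) and CDKN1C (-1.11, 0.0018) held, those for CCND1 (-0.18, 0.0802), CCND3 (-0.19, 0.0667) and CCNE1 (0.29, 0.0545) did not pass, and E2F1 was called lower (-0.19, 0.0481). All 4 MDAMB436 calls were lost without any 1 of its 4 libraries. Every other call in that line was lost as well, so the loss is not particular to these genes. In those fits the log2 changes were 0.28 to 0.31 for CCND1, 0.47 to 0.54 for CDKN1A, -0.25 to -0.22 for CDKN1B and -0.57 to -0.34 for CDKN1C. The 7 COV362 calls held in all 4 such fits.

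The drug effects at day 5 were next put together over the 4 lines in 1 fit. All 9 genes tested had a mean effect past the threshold, where 67.3% of all genes did. CDKN1C, CDKN1B and RBL2 were lower under EPZ015666, by a mean log2 change of -0.63 ± 0.052, -0.46 ± 0.017 and -0.15 ± 0.021 (adjusted p = 2.67e-06, 9.36e-09 and 8.53e-05). CDKN1A, CCND1, CCND3, MYC, E2F1 and CCNE1 were higher, by 0.22, 0.16, 0.14, 0.092, 0.084 and 0.076. The last 2 of these were lost in most fits without 1 library (adjusted p up to 0.0808 for E2F1 and 0.0848 for CCNE1). Of the 9, CDKN1B was the gene with the same sign and a call in each of the 4 lines. The F test for a difference of the effect between lines passed for all 9 genes, as it did for 68% of all genes tested, with adjusted p from 6.34e-06 for CDKN1A and 8.78e-06 for CCND3 to 0.0163 for E2F1. A mean over lines is therefore not the effect in any of them.

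In BT549 and OVCAR8 the vehicle cultures themselves changed between day 3 and day 5. Of the 10 genes in BT549, 4 were called between DMSO at day 5 and DMSO at day 3 (8.77% of all genes were), and in OVCAR8 6 of 9 (23.4% of all genes). The inhibitors rose with time in both lines under DMSO. CDKN1C had 6.95 and 7.81 RPKM at day 5 and 3.33 and 3.90 RPKM at day 3 in BT549 (log2 change 1.01 ± 0.130, adjusted p = 0.018), and 16.5 and 16.3 RPKM at day 5 and 8.78 and 8.46 RPKM at day 3 in OVCAR8 (0.92 ± 0.050, adjusted p = 0.00205). CDKN1A rose by 0.72 ± 0.084 in BT549 and 0.32 ± 0.039 in OVCAR8 (adjusted p = 0.0162 and 0.00693), and CDKN1B by 0.25 ± 0.040 and 0.19 ± 0.041 (adjusted p = 0.0257 and 0.0271). CCND1 fell over the same time to 0.682 times its day 3 level in BT549 (-0.53 ± 0.084, adjusted p = 0.0242) and to 0.483 times in OVCAR8 (-1.04 ± 0.047, adjusted p = 0.0016). In OVCAR8 MYC and RBL2 also rose, by 0.25 ± 0.046 and 0.19 ± 0.038 (adjusted p = 0.0191 and 0.0232). In BT549 none of the 4 calls held without either DMSO library of day 5 or without library A of DMSO at day 3, and the calls over all genes numbered 1, 5 and 186 in those fits, against 1071. In OVCAR8 the calls for MYC, RBL2 and CDKN1B were each lost in 3 of the 8 fits without 1 library (adjusted p up to 0.0952, 0.109 and 0.123), and over the 8 fits 861 to 2685 of all genes were called, against 3042.

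**Figure D3:**
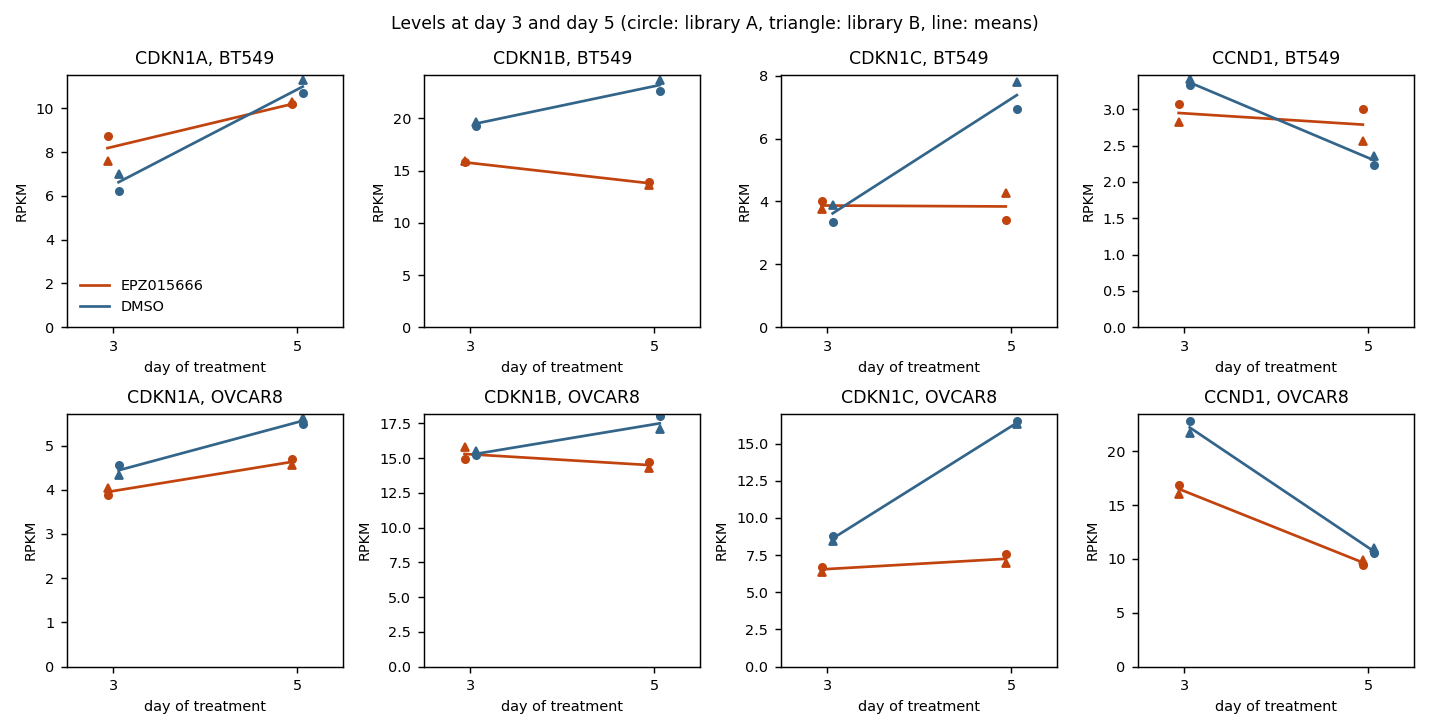
RPKM (vertical axis, from 0) of 4 genes at day 3 and day 5 of treatment (horizontal axis) in BT549 and OVCAR8, with libraries as points and lines through group means. In BT549 the CDKN1C means are 3.87 RPKM under EPZ015666 and 3.62 RPKM under DMSO at day 3, and 3.84 RPKM under EPZ015666 and 7.38 RPKM under DMSO at day 5.

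Under EPZ015666 CDKN1C had group means of 3.84 RPKM at day 5 and 3.87 RPKM at day 3 in BT549, where the libraries overlapped. In OVCAR8 the means were 7.25 RPKM at day 5 and 6.54 RPKM at day 3, where they did not overlap, and the change with time under the drug was not tested in either line. The drug effect at day 5 and the change of the vehicle with time share the DMSO libraries of day 5, so they are given side by side and not as separate evidence. The difference of the drug effect between the days was called for CDKN1B in BT549 (-0.45 ± 0.057, adjusted p = 0.0411), 1 of 10 genes beside 0.819% of all genes. In OVCAR8 it was called for CDKN1C (-0.77 ± 0.070, adjusted p = 0.0434), 1 of 9 genes beside 0.937% of all genes. Neither call held in any of the 8 fits of its line without 1 library (adjusted p 0.0505 to 0.206 and 0.0879 to 0.160), though the difference kept its sign in each. CDKN1C in BT549 had a difference of -1.03 ± 0.184 (adjusted p = 0.0603) and CDKN1B in OVCAR8 of -0.27 ± 0.059 (adjusted p = 0.0764), which did not pass.

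The lines differed in their vehicle levels of all 9 genes tested at day 5, where 93.8% of all genes did so. CDKN1A ranged most among the inhibitors, with group means of 11 RPKM in BT549, 5.56 in OVCAR8, 1.53 in COV362 and 1.19 in MDAMB436, and each pair of lines differed (adjusted p = 8.85e-05 for COV362 against MDAMB436, the closest pair). CCND1 had 2.30 RPKM in BT549 and 48.3 RPKM in COV362, the widest gap, a log2 difference of -4.34 ± 0.060 for BT549 minus COV362 (adjusted p = 1.78e-12). OVCAR8 and MDAMB436, with 10.7 and 10.9 RPKM, did not differ in CCND1 beyond their spread (-0.016 ± 0.060, adjusted p = 0.815). MYC was at 37.8 RPKM in COV362, 30.1 in OVCAR8, 19.8 in MDAMB436 and 16 in BT549, all pairs apart. CDKN1C was highest in OVCAR8 and MDAMB436 (16.4 and 13.1 RPKM) and lowest in COV362 (3.84). The pairs that did not pass were BT549 and OVCAR8 for CCND3 and RBL2 (adjusted p = 0.673 and 0.347), COV362 and MDAMB436 for CCND3 and CCNE1 (0.159 and 0.466) and BT549 and COV362 for E2F1 (0.538). RB1, whose mean over all day 5 libraries lay below the filter, had 0.110 RPKM in BT549 and 0.0238 to 0.0321 RPKM in the others. With no filter its level differed between lines too (adjusted p = 2.38e-07).

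Other genes of the pathway were read from 7 lists with 114 entries, by counts and medians beside all genes tested. Of the other CDK inhibitors (3 tested), CDKN2C, CDKN3 and CDKN2D were all lower in OVCAR8 at day 5, with log2 changes of -0.19, -0.58 and -0.63 (adjusted p = 0.0302, 0.00112 and 0.00102). Of all genes, 23% were lower there. At day 3 in OVCAR8 2 of the 3 were lower, beside 14.1% of all genes. In COV362 and MDAMB436 1 was lower in each, beside 26.4% and 12.4%. In BT549 0 passed at day 3, and 1 was higher at day 5, beside 13.6% of all genes higher. CDKN2C, which encodes the CDK4 and CDK6 inhibitor p18, also fell to 0.519 times the vehicle level in COV362 (adjusted p = 0.0016) and to 0.774 times in MDAMB436 (adjusted p = 0.0154). CDKN3, a phosphatase of CDK2, was higher in BT549 at day 5 (0.26, adjusted p = 0.0357). Of the other G1 cyclins, CDKs and activators (8 or 9 tested), 0 were higher and 1 lower in BT549 at day 3. The counts were 3 and 1 in BT549 at day 5, 1 and 2 in OVCAR8 at day 3 and 2 and 3 at day 5. They were 2 and 3 in COV362 and 0 and 1 in MDAMB436. All genes called made up 12.7%, 30.2%, 25.6%, 43.2%, 53.9% and 23.6% in the same order. CDK4 fell in BT549 and OVCAR8 at day 5, in OVCAR8 at day 3 and in COV362, by 0.31, 0.33, 0.22 and 0.34 on the log2 scale (adjusted p = 0.0156, 0.00274, 0.0184 and 0.00212). CCNA2, the cyclin of S phase, was higher in BT549 at day 5 (0.27, adjusted p = 0.0074) and lower at day 5 in OVCAR8, COV362 and MDAMB436 (-0.24, -0.25 and -0.38, adjusted p = 0.00463, 0.00907 and 0.0143). CCNC, the cyclin of CDK8, was higher in BT549 at day 5 and in OVCAR8 on both days (0.28, 0.19 at day 3 and 0.14 at day 5).

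Among other pocket proteins, E2Fs and their partners (14 or 15 tested), 0 were higher and 2 lower in BT549 at day 3, 3 and 0 in BT549 at day 5, 3 and 0 in OVCAR8 at day 3, 6 and 1 in OVCAR8 at day 5, 3 and 2 in COV362 and 0 and 0 in MDAMB436. These counts lay near or below the share of all genes called, which was 12.7%, 30.2%, 25.6%, 43.2%, 53.9% and 23.6% in the same order. E2F4, an E2F of quiescent cells that acts with pocket proteins, was higher in BT549 at day 5 (0.32, adjusted p = 0.0135), in OVCAR8 at day 3 and day 5 (0.18 and 0.24, adjusted p = 0.0163 and 0.00344) and in COV362 (0.34, adjusted p = 0.0108). E2F5 was lower in OVCAR8 at day 5 and in COV362 (-0.23 and -0.28), and E2F7, a repressing E2F, was lower in BT549 at day 3 (-0.33) and higher in OVCAR8 at day 5 (0.35). Of the E2F targets of the G1/S transition, 9 of 22 were lower and 0 higher in BT549 at day 3, beside 6.98% of all genes lower, with a median log2 change of -0.19 beside 0.007 for all genes. In MDAMB436 8 of 24 were lower and 0 higher, beside 12.4% of all genes lower, with a median of -0.16 beside 0.002. These calls depended on the setting. With a replicate block 0 of all genes were called in MDAMB436, and 1009 against 1555 in BT549 at day 3. The list itself was counted only in the main fits. In the other comparisons the called targets were split, with 3 higher and 3 lower in BT549 at day 5, 4 and 5 in OVCAR8 at day 3, 3 and 7 in OVCAR8 at day 5 and 8 and 5 in COV362. Of all genes, 13.6% were higher and 16.6% lower in BT549 at day 5, 11.5% and 14.1% in OVCAR8 at day 3, 20.2% and 23% in OVCAR8 at day 5 and 27.6% and 26.4% in COV362. MCM7, a subunit of the replicative helicase, and POLA1, the catalytic subunit of DNA polymerase alpha, each passed in 5 comparisons, all lower, with MCM7 at 25.7 RPKM under EPZ015666 and 35.6 RPKM under DMSO in OVCAR8 at day 5 (adjusted p = 0.000198).

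**Figure D4:**
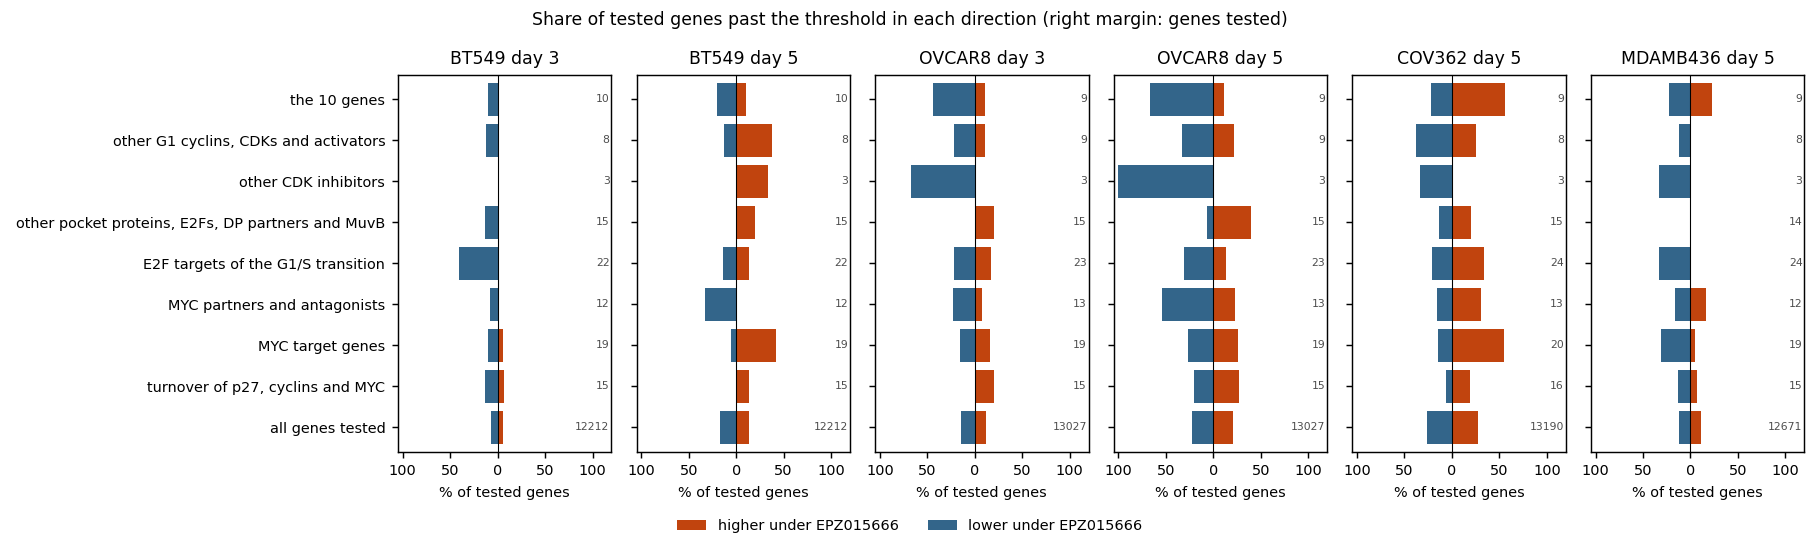
Percent of tested genes called higher (to the right) or lower (to the left) under EPZ015666 in the 10 genes, in 7 lists of related genes and in all genes tested, for 6 comparisons, with the number tested at the right edge. The E2F targets lie mostly to the left in BT549 at day 3 and in MDAMB436, and the lists hold as few as 3 tested genes.

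Around MYC itself, 7 of 13 of its partners and antagonists were lower and 3 higher in OVCAR8 at day 5, 4 of 12 lower and 0 higher in BT549 at day 5, and 2 of 13 lower and 4 higher in COV362. In BT549 at day 3, 1 was lower and 0 higher of 12, in OVCAR8 at day 3 3 lower and 1 higher of 13, and in MDAMB436 2 lower and 2 higher of 12. All genes called, in either direction, made up 43.2% in OVCAR8 and 30.2% in BT549 at day 5, 53.9% in COV362, 12.7% and 25.6% in BT549 and OVCAR8 at day 3 and 23.6% in MDAMB436. MXD3, a MAX partner that represses MYC targets, passed in 5 comparisons, all lower. It had 3.53 RPKM under EPZ015666 and 6.75 RPKM under DMSO in OVCAR8 at day 5 (log2 change -0.92 ± 0.032, adjusted p = 0.000108) and 2.35 RPKM and 4.59 RPKM in COV362 (-0.94 ± 0.048, adjusted p = 0.00188). MXD4, of the same family, was lower in 4 (-0.50 in BT549, -0.20 in OVCAR8, -0.32 in COV362 and -0.28 in MDAMB436, all at day 5). MAX, the obligate partner of MYC, was higher in OVCAR8 at both days (0.22 and 0.50) and in MDAMB436 (0.20), and lower in BT549 at day 5 (-0.19). MYC RNA was lower in OVCAR8 and higher in COV362, and the MYC target genes had 5 higher and 5 lower of 19 in OVCAR8 at day 5 (median -0.029 beside -0.005 for all genes), and 11 higher and 3 lower of 20 in COV362 (median 0.17 beside 0.006). In BT549 at day 5, 8 of 19 were higher and 1 lower (median 0.16 beside -0.003), and in MDAMB436 1 was higher and 6 were lower of 19 (median -0.030 beside 0.002). At day 3, 1 was higher and 2 lower of 19 in BT549 (median -0.007 beside 0.007), and 3 and 3 of 19 in OVCAR8 (-0.037 beside 0). Of all genes, 20.2% were higher and 23% lower in OVCAR8 at day 5, and 27.6% and 26.4% in COV362. The shares were 13.6% and 16.6% in BT549 at day 5 and 11.3% and 12.4% in MDAMB436. At day 3 they were 5.76% and 6.98% in BT549 and 11.5% and 14.1% in OVCAR8. CAD, which starts pyrimidine synthesis, was lower in all 6 comparisons, by 0.38 to 0.67 on the log2 scale. RRP9, of the U3 ribonucleoprotein that processes ribosomal RNA, was higher in 4, with 10.6 RPKM under EPZ015666 and 5.46 RPKM under DMSO in COV362 (adjusted p = 0.00149). The chaperonin HSPD1 was higher in 4 as well, by 0.46 in BT549 at day 5, by 0.14 and 0.10 in OVCAR8 at day 3 and day 5 and by 0.14 in COV362.

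Of the genes that govern the turnover of p27, cyclins and MYC, 2 to 7 of 15 or 16 passed in a comparison. They were 3 of 15 in BT549 at day 3, 2 of 15 in BT549 at day 5, 3 of 15 in OVCAR8 at day 3, 7 of 15 in OVCAR8 at day 5, 4 of 16 in COV362 and 3 of 15 in MDAMB436, beside 12.7%, 30.2%, 25.6%, 43.2%, 53.9% and 23.6% of all genes in the same order. SKP2, the ubiquitin ligase subunit that recognises p27, fell in OVCAR8 at day 5, in COV362 and in MDAMB436, by 0.39, 0.41 and 0.22 on the log2 scale (adjusted p = 0.00265, 0.00395 and 0.0426). Its cofactor CKS1B was higher in BT549 on both days (0.40 at day 3 and 0.49 at day 5), in COV362 (0.29) and in MDAMB436 (0.31). UHRF1, a ubiquitin ligase and reader of methylated DNA, was lower in BT549 at day 3 (-0.25) and in MDAMB436 (-0.20) and higher in BT549 at day 5 (0.27). CDKN1B RNA fell in the same 3 comparisons as SKP2 RNA, and also in BT549, where SKP2 did not pass (0.12 at day 5 and -0.079 at day 3, adjusted p = 0.10 and 0.291).

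The genes whose levels ran most like those of each member over the 12 groups were sought among 12034 genes, by the root mean square difference of log2 group means, each centred on its own mean. For MYC, whose own standard deviation over the groups was 0.48, they were SNRPFP1 (0.161), ARHGEF19 (0.168), PDGFB (0.182), ATAD1 (0.184) and RPL12 (0.196). For E2F1 they were PTP4A2P1 and PTP4A2 (0.099 and 0.101), a pseudogene and its parent whose reads may be shared. The closest to CDKN1A were C4orf3 and FBXL8 (0.221 and 0.266), to CDKN1B GNAS and ERCC1 (0.130 and 0.134), and to CDKN1C HES4 and PTPRF (0.282 and 0.294). For CCND1 they were DLX5 and FOXL1 (0.377 and 0.398), for CCND3 NDUFAB1 and ZNF592 (0.107 and 0.110), for CCNE1 RFX1 and USP5 (0.103 and 0.108), for RBL2 VASH1 and ADH5 (0.135 and 0.140) and for RB1 SIK3 and KIF13B (0.061 and 0.078). These are descriptions over 12 groups that share lines and libraries, and most of the variation they follow is between lines.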

How the data were processed

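Stranded poly(A) RNA-seq of 24 libraries (4 lines, 12 groups of 2) was read from a table of RPKM values deposited by the authors, who per the submitters' processing notes used featureCounts and GRCh38. No source used here gives the aligner, the versions or the annotation. RPKM multiplied by a gene's whole span in GENCODE release 29 gave whole reads (within 0.02) for 100% of nonzero values under 1000 reads of 16544 genes, so lengths were whole spans, which lowers RPKM of genes with long introns. Whether intronic reads were counted is not known.

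Differences were tested with limma 3.58.1 in R 4.3.3 (with an intensity trend) on log2(RPKM + 0.1), which understates changes of low genes. Each line was fitted on its own, over genes with a mean of at least 0.1 RPKM in that line. The drug effects over 4 lines used genes with a mean of at least 0.1 RPKM in each line. Vehicle levels were compared between lines over genes with a mean of at least 0.1 RPKM over all day 5 libraries. P-values were adjusted by Benjamini-Hochberg over all genes tested, and a call is an adjusted p below 0.05. The model's standard errors (SE) share the spread over a line's libraries. Alternatives were a pseudocount of 1, no filter, a filter of 1 RPKM, both changes together, median-of-ratios scaling, a replicate block, 1 fit of all 24 libraries, limma-voom on recovered reads (mean CPM of at least 1) and leaving out each library.

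The members and gene lists were chosen with earlier results of these data known. The genes named were all 10 members, up to 3 per list that passed in most drug comparisons, 5 genes with a pattern near that of MYC and 2 near each other member, and PRMT5; 1 gene this rule names is not reported here. Promoters came from RefSeq (GRCh38.p14). The fitting steps were tested on simulated data.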

Additional observations from a re-analysis of the deposited data

Results flagged for a closer look

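The drug effect at day 5 differed between the 4 lines, by a limma F test of that difference, for each of the 9 genes tested, beside 68% of all genes. The adjusted p was 6.34e-06 for CDKN1A, which was higher under EPZ015666 in COV362 and MDAMB436 and lower in OVCAR8. It was 8.78e-06 for CCND3 and 1.42e-05 for MYC, both higher in COV362 and lower in OVCAR8. It was 1.87e-05 for RBL2, called lower in COV362, and 3.12e-05 for CDKN1B, lower in all 4 lines by log2 changes from -0.75 in BT549 to -0.23 in MDAMB436. CDKN1C had 0.000268 and was lower in BT549, OVCAR8 and MDAMB436, with a change of 0.052 in COV362. CCNE1 had 0.000933, CCND1 0.00286 and E2F1 0.0163. The F test passed for each of the 9 genes in all 16 fits that left out 1 library of day 5.

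The drug effect also differed between day 5 and day 3 for CDKN1B in BT549 (adjusted p = 0.0411) and for CDKN1C in OVCAR8 (adjusted p = 0.0434), by a test of the difference in limma. The calls were absent from all 8 fits of each line that left out 1 library, and present in 7 of 8 other settings for each gene.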

How the results depend on the processing

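In the 6 comparisons of EPZ015666 with DMSO, over settings other than leaving out a library, 396 of the members' log2 changes and tests kept their direction and side of the threshold, 22 came to pass and 10 no longer passed. With 1 library left out, in the same 6 comparisons, 316 kept both, 46 no longer passed, 6 came to pass and 8 changed sign, all 8 from values that had not passed: CCND3 (from -0.014 to 0.054 over the left-out libraries) and RBL2 (-0.056 to 0.038) in BT549 at day 5, MYC (-0.024 to 0.189) and CDKN1C (-0.011 to 0.211) in BT549 at day 3, CDKN1B (-0.038 to 0.043) in OVCAR8 at day 3 and E2F1 (-0.062 to 0.095) in MDAMB436. The cause was not tested. E2F1 in BT549 at day 3, at 0, ranged from -0.126 to 0.125. Values that had not passed also changed sign between vehicle days for RB1 in BT549 (-0.037 to 0.06) and for CCND3 (-0.026 to 0.004) and CCNE1 (-0.022 to 0.067) in OVCAR8, and in the difference between days for RB1 in BT549 (-0.008 to 0.089) and CCNE1 in OVCAR8 (-0.11 to 0.038). Members called with 1 library left out numbered 2 to 5 (3 with all) in BT549 at day 5, 0 to 1 (1) at day 3, 0 to 4 (4) between its vehicle days and 0 (1) for its difference between days. In OVCAR8 they were 4 to 6 (7) at day 5, 3 to 4 (5) at day 3, 3 to 6 (6) between vehicle days and 0 (1) for the difference between days. They were 7 in COV362 (7), 0 in MDAMB436 (4) and 7 to 9 (9) for the mean of the lines. Over all genes, these fits called 1536 to 3950 (3687 with all) in BT549 at day 5, 418 to 970 (1555) at day 3, 1 to 853 (1071) between its vehicle days and 0 to 180 (100) for its difference between days. In OVCAR8 they called 3774 to 5370 (5632) at day 5, 1517 to 2993 (3330) at day 3, 861 to 2685 (3042) between vehicle days and 0 to 3 (122) for the difference between days. The 0 counts came without library A of EPZ015666 at day 5 in BT549 and of DMSO at day 5 in OVCAR8, where limma gave 1657 and 2456 genes at an unadjusted p below 0.05. In COV362 they called 3829 to 4962 (7116). In the MDAMB436 fits limma called 0 genes of all, with 3314 to 4686 genes at an unadjusted p below 0.05.

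A fit of all 24 libraries called 5 members in BT549 at day 5, 4 at day 3, 4 for its difference between days, 2 for that of OVCAR8 and 7 in MDAMB436. Limma-voom called 6, 3, 4 and 4 for the first 4 of these. A filter of 1 RPKM, with a pseudocount of 0.1 or 1, called 2 members in BT549 at day 3 and 2 for its difference between days, and with the pseudocount of 1 also 2 for that of OVCAR8. The order of the 12 group means held under median-of-ratios scaling for 4 of 10 members.

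Under the other settings, counts over all genes moved by more than 1.5 times as follows. The filter of 1 RPKM (with a pseudocount of 1 in parentheses) gave 3563 (3558) calls in OVCAR8 at day 5 against 5632, 4461 (4460) in COV362 against 7116, 3499 (3512) for the mean of lines against 6951, 3736 (3754) for the difference between lines against 7021, 6437 (6440) for vehicle levels against 12725, and 366 (373) and 461 (472) for the difference between days in BT549 and OVCAR8 against 100 and 122. Fewer genes are tested under that filter. The share of calls that were higher in OVCAR8 at day 5 was 37.7% under it (37.6%), against 46.8%. The fit of all 24 libraries gave 3516 calls in BT549 at day 3 against 1555, 3045 between its vehicle days against 1071, 1840 and 781 for the differences between days and 5008 in MDAMB436 against 2994. Limma-voom gave 3009, 2439, 1240, 1950 and 5828 for these, and 4624 between OVCAR8 vehicle days against 3042.

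The labels do not say whether the letters A and B pair the libraries, and the main fits treated them as unpaired. The correlation of the A minus B difference between EPZ015666 and DMSO was -0.104, -0.157, 0.002, -0.123, 0.177 and -0.077 over the 6 line and day pairs. These weak correlations over genes cannot decide whether libraries of the same letter were handled together. With a replicate block, 0 members were called for the difference between days in BT549 and in OVCAR8 and 0 in MDAMB436, where limma called 15, 0 and 0 of all genes and 2330, 2790 and 4638 had an unadjusted p below 0.05. The block gave 1009 calls in BT549 at day 3 and 478 between its vehicle days. With 2 libraries a group, few degrees of freedom stand behind each test.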
